A study of Mus musculus with 8 samples.

Results

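The nuclear receptor family of transcription factors was examined in liver RNA of mice dosed with furan, together with receptor coregulators and the dioxin receptor pair. The 46 genes were 39 nuclear receptors, 5 coregulators, and the dioxin receptor gene Ahr with its partner Arnt. They were taken from a fixed list of mouse symbols, and array probes were assigned to them through RefSeq accessions. All 46 had at least 1 probe. Of these, 42 were bright enough to be tested, among 24921 genes or transcripts tested in all, and Hnf4g, Nr4a3, Pgr and Vdr were not.

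The furan group held 4 female B6C3F1 mice (replicates 41, 42, 43 and 44), dosed by gavage on 21 days with furan at 8 mg per kg body weight in corn oil. The vehicle group held 4 female mice of the same hybrid strain (replicates 2, 3, 4 and 6), which received corn oil without furan. The animals were 5 to 6 weeks old when bought and had at least 7 days to settle before dosing. Livers were removed 4 hours after dosing ended and snap frozen, and each liver was measured on its own Agilent array of a single colour. Furan, a volatile ring compound that arises in heated food, damages rodent liver and causes liver tumours there. The labels mention randomized blocks but assign no animal to one.

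Nuclear receptors are transcription factors that bind short DNA sites, and many of them are switched by small fat-soluble ligands such as hormones, bile acids, oxysterols and fatty acids. Some bind DNA alone or as pairs of the same protein, and many pair with a retinoid X receptor, RXR. A bound ligand exchanges corepressors such as NCOR1 for coactivators of the NCOA group. In hepatocytes HNF4A maintains liver genes, CAR and PXR induce drug metabolism, FXR and SHP restrain bile acid synthesis, LXR controls cholesterol removal, and PPAR alpha drives fatty acid oxidation. The dioxin receptor AHR belongs to another family, the bHLH-PAS proteins, and acts as a pair with ARNT.

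Levels are given as log2 probe signal relative to the 75th percentile of the array, so that a value of 0 lies at that percentile. Values of the furan arrays stand in the order of replicates 41, 42, 43 and 44, and those of the vehicle arrays in the order 2, 3, 4 and 6. A difference is the furan mean minus the vehicle mean on this log2 scale, with its SE. Between 55.8% and 69.4% of the probe spots were well above background on the furan arrays. The share was 55.1% to 67.5% on vehicle arrays 3, 4 and 6 and 86.2% on vehicle array 2. The array of vehicle replicate 2 stood apart for these genes as well, with the lowest of the 8 values for 24 of the 42. The median over the 42 genes was 1.98 to 2.16 on the furan arrays, 1.91 to 1.99 on vehicle arrays 3, 4 and 6, and 1.78 on vehicle array 2. Without that array 35 of the 42 genes kept the sign of their difference, and Rara, Rorb, Nr1h4, Rxrb, Nr2f6, Nr3c1 and Esrra did not. Values without it are given below for some of the genes that moved. All 12 hepatocyte markers were tested, with a mean level of 8.31 to 8.43 on the furan arrays and 8.24 to 8.62 on the vehicle arrays.

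**Figure D1:**
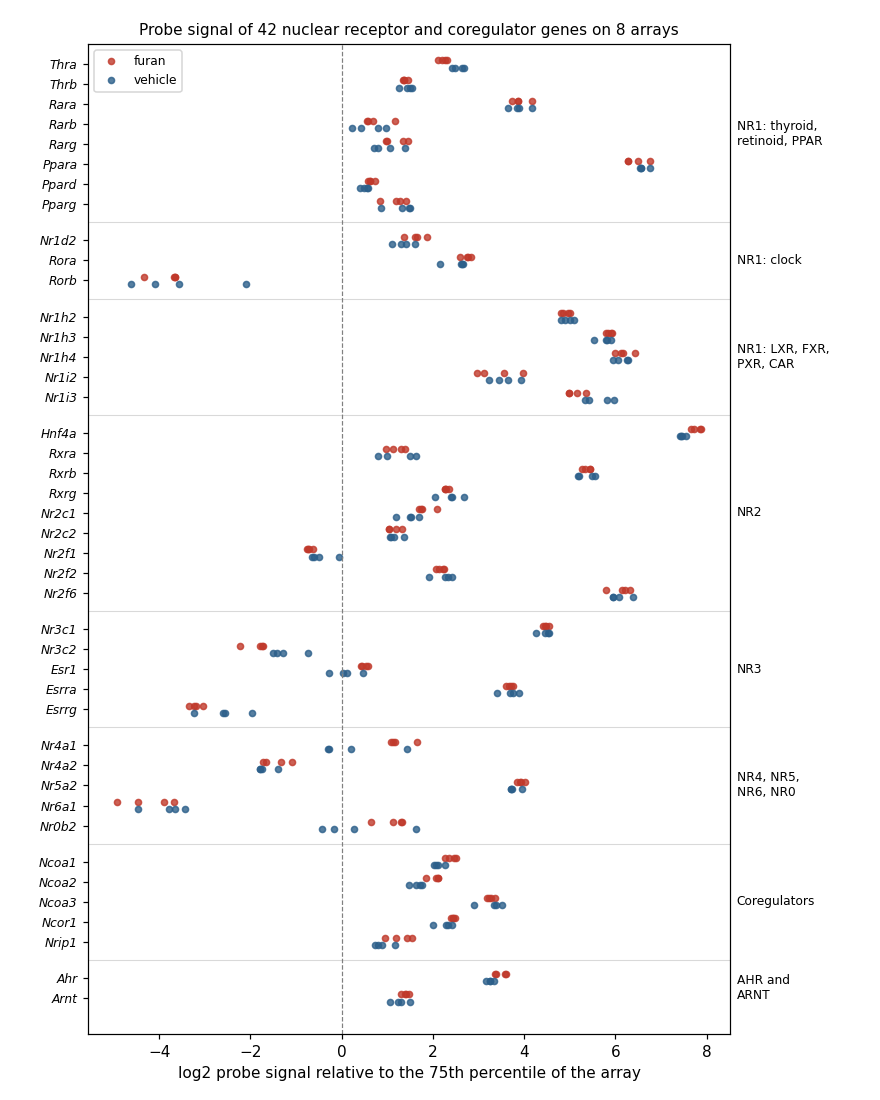
Log2 probe signal of the 42 tested genes on each array, relative to the 75th percentile of the array (dashed line at 0); red points above are the 4 furan arrays, blue points below the 4 vehicle arrays, and genes are grouped by receptor class. The red and blue points of most genes cover the same range, and brightness is not comparable between probes of different genes.

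The comparison of furan with vehicle liver asked whether 3 weeks of dosing altered the RNA of the receptors and their coregulators. In limma, 0 of the 42 genes passed an adjusted p of 0.05 in either direction, where 4.18% of all tested genes did (2.87% higher and 1.31% lower in furan). The smallest adjusted p among them was 0.0808, for the coactivator gene Ncoa2. At an unadjusted limma p under 0.05 there were 12 genes, 8 with a higher and 4 with a lower furan mean. That was 28.6% of the 42, against 23.8% of all genes (12.3% higher and 11.5% lower). The furan and vehicle values did not overlap for 7 genes, 5 with all furan arrays higher and 2 with all furan arrays lower. That was 16.7% of the 42, against 18.1% of all genes (10.8% higher and 7.33% lower). Each of these shares was near that of all genes.

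The differences were small. The median over the 42 genes was 0.03, against -0.09 over all genes, and the median size regardless of sign was 0.17, against 0.24. For 36 of the 42 the 95% confidence interval lay inside a 2-fold change in either direction, as it did for 75.3% of all genes, and for 26 it lay inside 1.5-fold (46.5% of all genes). The 6 genes whose interval reached 2-fold were Rorb, Nr3c2, Esrrg, Nr4a1, Nr6a1 and Nr0b2. The mean was higher in furan for 25 genes and lower for 17. That split depended on scaling, since with quantile normalization and with the authors' deposited values, 21 of the 42 were higher in furan. It also depended on vehicle replicate 2, without which 20 of the 42 were higher, and on furan replicate 41, without which 20 were higher. In whole liver, fewer cells of a type and less RNA per cell cannot be told apart.

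**Figure D2:**
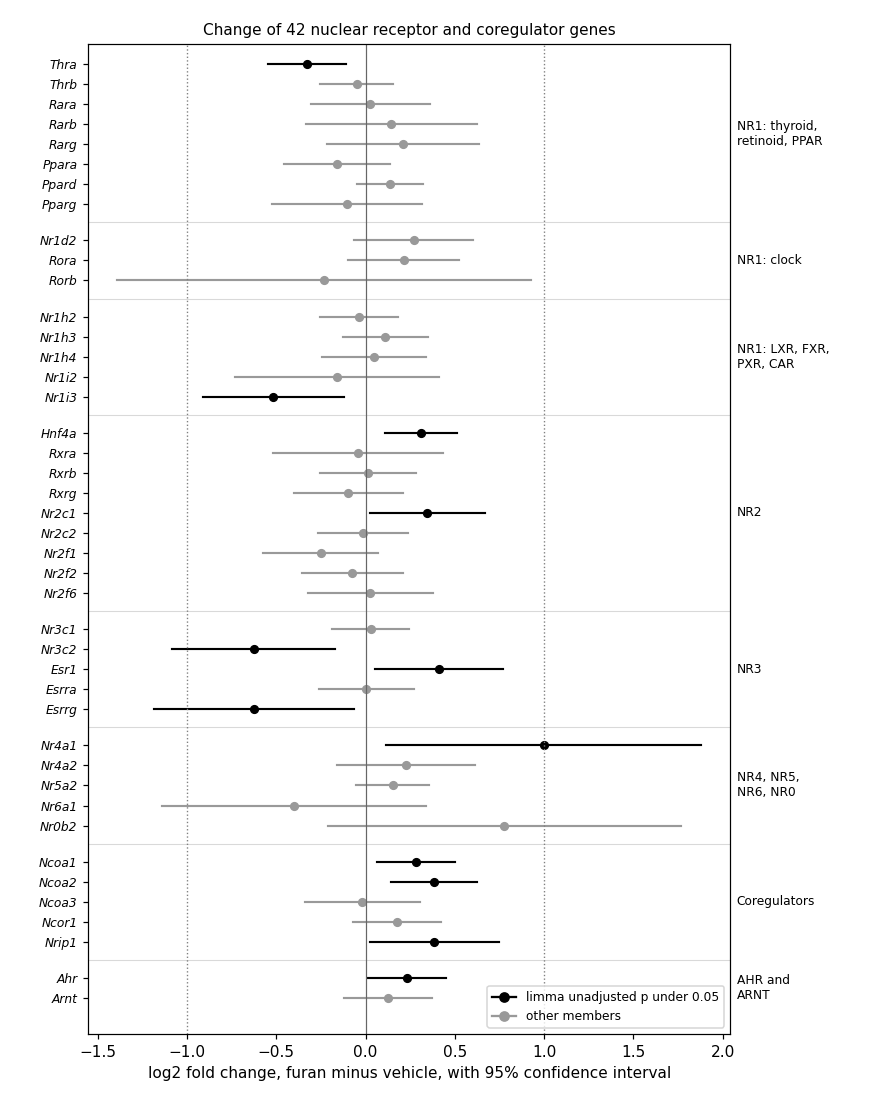
Log2 fold change, furan minus vehicle, of the 42 tested genes with 95% confidence intervals from limma, grouped by receptor class; black marks an unadjusted p under 0.05, grey the other genes, and dotted lines a 2-fold change. Most intervals cross 0, and 36 of 42 stay between the dotted lines.

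Among the thyroid hormone, retinoic acid and peroxisome proliferator-activated receptors, all 8 genes were tested, with differences of -0.33 to 0.21 and a median of -0.01. Thra, which encodes thyroid hormone receptor alpha, read 2.27, 2.31, 2.20 and 2.12 on the furan arrays and 2.42, 2.63, 2.68 and 2.48 on the vehicle arrays. All furan values lay below all vehicle values, with a difference of -0.33 ± 0.09 that did not pass (limma adjusted p = 0.0922). Thra passed with quantile normalization (limma adjusted p = 0.0356), with normexp background correction (0.0303) and in the authors' deposited table (0.0411), and its difference was 0.16 with a median shift (0.824). Its second kept probe, a dimmer one, gave -0.47 with overlapping groups (limma unadjusted p = 0.118). That probe read -0.82 on vehicle array 2 and -2.04 to -1.91 on the other vehicle arrays, against a furan mean of -2.16. Its difference thus rested largely on vehicle array 2. The sister gene Thrb, for the beta receptor that is prominent in hepatocytes, gave -0.05 ± 0.09 (limma adjusted p = 0.726).

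Ppara encodes the fatty acid sensor PPAR alpha. Its level was 6.76, 6.28, 6.49 and 6.28 on the furan arrays and 6.57, 6.55, 6.57 and 6.75 on the vehicle arrays. The groups overlapped, with furan array 41 at the top, and the difference was -0.16 ± 0.13 (limma adjusted p = 0.436). All 3 Ppara probes gave -0.16 to -0.15. Ppard, for the widely expressed delta receptor, had 4 furan values of 0.59 to 0.73 above 4 vehicle values of 0.41 to 0.57, a difference of 0.13 ± 0.08 (limma adjusted p = 0.323). Pparg, the adipogenic receptor, overlapped fully at -0.11 ± 0.18. The retinoic acid receptor genes Rara, Rarb and Rarg differed by 0.03, 0.14 and 0.21, each with overlapping groups.

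The 3 clock-linked receptors had no call. Nr1d2 encodes REV-ERB beta, a heme-binding repressor in the circadian clock. It read 1.87, 1.66, 1.60 and 1.37 on the furan arrays and 1.11, 1.31, 1.41 and 1.60 on the vehicle arrays, 0.27 ± 0.14 higher in furan (limma adjusted p = 0.284). Furan array 44 and vehicle arrays 4 and 6 made the groups overlap. Rora, an activator that competes with REV-ERB for its sites, gave 0.21 ± 0.13, and 0.091 without vehicle replicate 2, its lowest array. Rorb, a relative known from brain and retina, had dim probes on every array and gave -0.23 ± 0.50, and 0.27 without vehicle replicate 2.

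Of the 5 tested receptors for oxysterols, bile acids and xenobiotics, 2 were higher in furan and 3 lower, with a median of -0.04. Nr1i3 encodes CAR, the constitutive androstane receptor, which switches on drug-metabolising enzymes. It read 5.36, 4.99, 4.98 and 5.15 on the furan arrays and 5.33, 5.82, 5.42 and 5.98 on the vehicle arrays. Only furan array 41 and vehicle array 2 overlapped, and the difference was -0.52 ± 0.17 (limma adjusted p = 0.125). A second Nr1i3 probe gave -0.46, and without vehicle replicate 2 the difference was -0.62 (0.0811). It passed in the authors' deposited table (limma adjusted p = 0.0379), and with a median shift it was -0.03 (0.967).

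Nr1i2, for the pregnane X receptor PXR, did not separate the groups, at 3.98, 2.96, 3.56 and 3.12 on the furan arrays and 3.24, 3.64, 3.46 and 3.93 on the vehicle arrays. Its difference of -0.16 ± 0.25 had a limma adjusted p of 0.683. Nr1h4, for the bile acid receptor FXR, gave 0.05 ± 0.13, with 5.99 to 6.42 on the furan arrays and 5.94 to 6.27 on the vehicle arrays. The liver X receptor genes Nr1h3 and Nr1h2 gave 0.11 ± 0.10 and -0.04 ± 0.09. For FXR and both LXR genes the 95% interval lay inside 1.5-fold.

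In class NR2, Hnf4a gave the brightest probe of the 42. The gene encodes HNF4A, a receptor with constant activity that maintains hepatocyte identity. It read 7.85, 7.88, 7.72 and 7.65 on the furan arrays and 7.44, 7.47, 7.55 and 7.41 on the vehicle arrays. Every furan array lay above every vehicle array, by 0.31 ± 0.09 on average, without passing the threshold (limma adjusted p = 0.0859). It passed with the trend and robust options of limma (adjusted p = 0.0335). The 4 slide columns held 1 furan and 1 vehicle array each. As the groups did not overlap, Hnf4a had to be higher in furan in each column, and the column differences were 0.10 to 0.47.

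Nr2c1 encodes the orphan receptor TR2, and its probe read 2.09, 1.73, 1.70 and 1.77 on the furan arrays and 1.18, 1.52, 1.70 and 1.51 on the vehicle arrays. The furan mean was higher by 0.34 ± 0.14 (limma adjusted p = 0.188), with an overlap at furan array 43 and vehicle array 4. On the second Nr2c1 probe the groups were apart, at 0.33 to 0.46 on the furan arrays and -0.03 to 0.14 on the vehicle arrays, a difference of 0.29. The related Nr2c2, for TR4, gave -0.01 ± 0.11. The heterodimer partners Rxra, Rxrb and Rxrg differed by -0.04, 0.01 and -0.10, and all their groups overlapped. A second kept probe gave -0.21 for Rxra (limma unadjusted p = 0.171) and -0.38 for Rxrg (0.0781), also with overlapping groups. The COUP-TF genes Nr2f1, Nr2f2 and Nr2f6 differed by -0.25, -0.07 and 0.03.

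Class NR3 holds steroid and estrogen-related receptors. Nr3c1, for the glucocorticoid receptor, read 4.41 to 4.55 on the furan arrays and 4.25 to 4.54 on the vehicle arrays (0.03 ± 0.09). Nr3c2, for the mineralocorticoid receptor, read -2.23, -1.72, -1.78 and -1.74 on the furan arrays and -0.74, -1.41, -1.52 and -1.29 on the vehicle arrays. The groups did not overlap, at -0.63 ± 0.20 (limma adjusted p = 0.110), and without vehicle replicate 2 the difference was -0.46 (0.125). The probe was dim, below the 75th percentile on all 8 arrays.

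Esr1, for estrogen receptor alpha, read 0.45, 0.42, 0.58 and 0.54 on the furan arrays and -0.28, 0.03, 0.13 and 0.46 on the vehicle arrays. Its furan mean was higher by 0.41 ± 0.15 (limma adjusted p = 0.164), and by 0.29 without vehicle replicate 2 (0.217), with vehicle array 6 inside the furan range. Esrrg, for an estrogen-related receptor without a natural ligand, read -3.05, -3.24, -3.35 and -3.20 on the furan arrays and -1.96, -2.59, -3.23 and -2.55 on the vehicle arrays. Its difference of -0.62 ± 0.24 (limma adjusted p = 0.174) was not seen on a second probe (-0.08), and with normexp it was 0.16 (0.696). Without vehicle replicate 2 the Esrrg difference was -0.42 (limma adjusted p = 0.222). Esrra, the relative that cooperates with PGC-1 coactivators, gave 0.00 ± 0.12.

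Nr4a1 and Nr0b2 had the largest positive differences, and their vehicle arrays were widely spread. Nr4a1 encodes NUR77, an orphan receptor induced within hours as an immediate early gene. It read 1.12, 1.65, 1.17 and 1.09 on the furan arrays and -0.30, 0.20, 1.44 and -0.29 on the vehicle arrays. The furan values were alike and vehicle array 4 lay among them, so that the difference of 1.00 ± 0.38 did not pass (limma adjusted p = 0.170). Without vehicle replicate 4 it was 1.39 and passed (limma adjusted p = 0.0334). It passed in no other fit without 1 array, where it fell as low as 0.81 and limma adjusted p reached 0.301.

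Nr0b2 encodes SHP, a receptor without a DNA-binding domain that FXR induces and that represses bile acid synthesis. It read 1.32, 0.65, 1.13 and 1.31 on the furan arrays and 1.63, -0.16, -0.43 and 0.26 on the vehicle arrays. The array of vehicle replicate 2 was the highest of all 8, and the difference of 0.78 ± 0.43 did not pass (limma adjusted p = 0.296). Without that array it was 1.21 and passed (limma adjusted p = 0.0369). It passed in no other fit without 1 array, where it fell as low as 0.52 and limma adjusted p reached 0.484. Nr5a2, for the bile acid and cholesterol regulator LRH-1, gave 0.15 ± 0.09, and Nr4a2, an NUR77 relative, 0.23 ± 0.17 on a dim probe. Nr6a1, a germ cell receptor, was well above background on 3 arrays of each group and gave -0.40 ± 0.32.

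**Figure D3:**
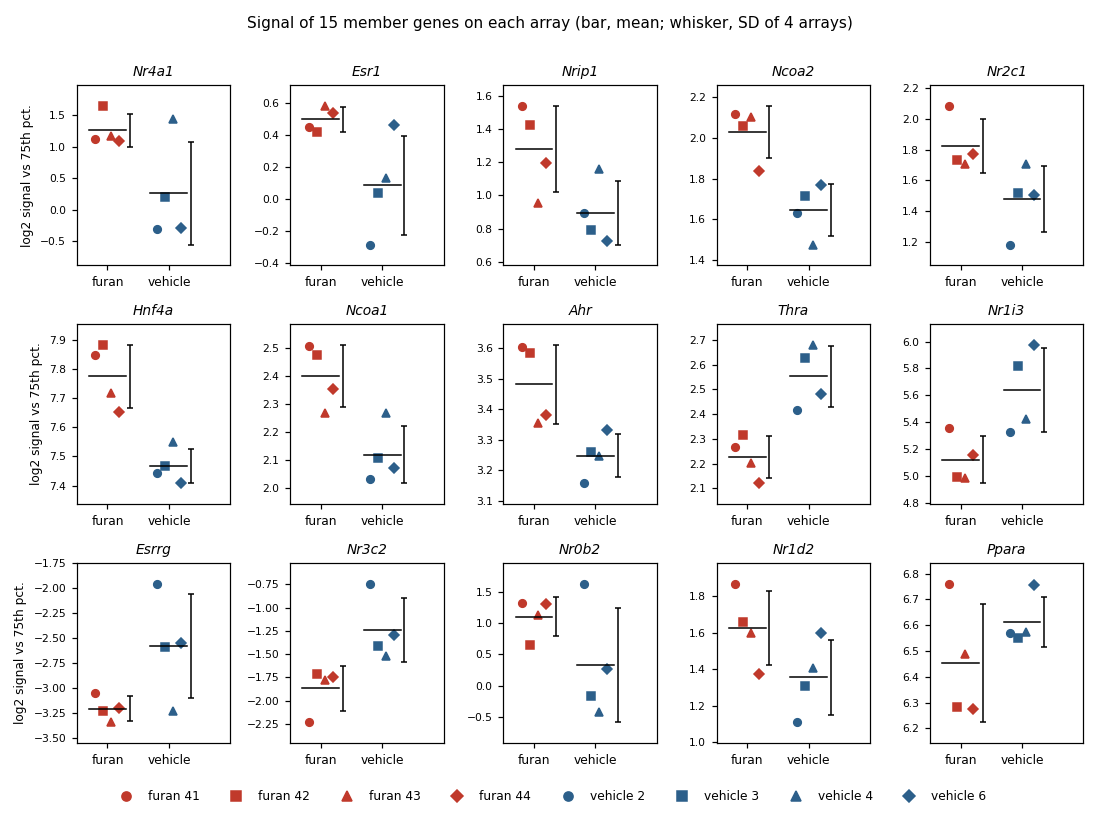
Log2 signal on each array for 15 genes, the furan arrays in red on the left and the vehicle arrays in blue on the right of each panel, with the mean as a bar and the SD as a whisker (n = 4 each); the marker shape tells the replicates apart. Hnf4a and Ncoa2 separate the groups upward and Thra and Nr3c2 downward, while single vehicle arrays of Nr4a1 and Nr0b2 lie within or above the furan range.

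The 5 coregulators had 0 calls and a median difference of 0.28, and 4 were higher in furan. At least 4 were higher under every setting run, though several settings leave the differences unchanged and the median shift raised them all. Ncoa2 encodes a p160 coactivator, also known as TIF2. It read 2.12, 2.06, 2.10 and 1.84 on the furan arrays and 1.63, 1.72, 1.47 and 1.77 on the vehicle arrays. All furan arrays were higher, by 0.38 ± 0.10 on average (limma adjusted p = 0.0808), and the gene passed with the trend and robust options (0.0416). Without overlap it had to be higher in furan in all 4 slide columns, and the column differences were 0.29 to 0.49.

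Ncoa1, the p160 relative known as SRC-1, read 2.51, 2.47, 2.27 and 2.35 on the furan arrays and 2.03, 2.11, 2.27 and 2.07 on the vehicle arrays. The groups almost touched, at 2.26545 on furan array 43 and 2.26544 on vehicle array 4, and Ncoa1 was counted above as not overlapping. The difference was 0.28 ± 0.10 (limma adjusted p = 0.131). All 3 Ncoa1 probes were higher in furan, by 0.27 to 0.41. Nrip1, for the corepressor RIP140, read 1.54, 1.42, 0.95 and 1.20 on the furan arrays and 0.89, 0.79, 1.16 and 0.73 on the vehicle arrays. Its difference was 0.38 ± 0.16 (limma adjusted p = 0.189), with furan array 43 and vehicle array 4 crossing. Ncoa3 and the corepressor gene Ncor1 gave -0.02 ± 0.14 and 0.17 ± 0.11.

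Ahr read 3.60, 3.58, 3.36 and 3.38 on the furan arrays and 3.16, 3.26, 3.25 and 3.33 on the vehicle arrays. All furan arrays were higher, by 0.23 ± 0.09 on average, without passing (limma adjusted p = 0.186). A second, dim Ahr probe, well above background on 2 furan and 2 vehicle arrays, gave -0.33 (limma unadjusted p = 0.407). It read -3.42 on vehicle array 2, -4.81 to -4.46 on the other vehicle arrays and -5.45 to -4.06 on the furan arrays. The mean of both probes gave -0.050 (limma adjusted p = 0.868). Arnt, which dimerises with AHR and with hypoxia-inducible factors, gave 0.13 ± 0.11. As its groups did not overlap, Ahr had to be higher in furan in all 4 slide columns, and Arnt was higher in 3.

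Of the 4 genes that were not tested, Hnf4g was well above background on 2 furan arrays and 0 vehicle arrays. Vdr, for the vitamin D receptor, was so on 1 furan array and 2 vehicle arrays, Pgr, for the progesterone receptor, on 0 and 1, and Nr4a3 on 0 and 0. No fold is given for them. Of the 42 tested genes, 40 were well above background on all 8 arrays, the exceptions being Nr6a1 and Rorb. In all, 67 probes of these genes were kept, and 22 genes had several. Probes of 6 genes had opposite signs, namely Ahr, Ncor1, Nr1h3, Nr3c1, Nr4a2 and Rarb. When each probe was tested on its own, 0 of the 67 passed in limma and 16 had an unadjusted p under 0.05.

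Ordered by probe brightness in vehicle liver, the 42 genes began with Hnf4a at 7.47 ± 0.06 (SD, n = 4), Ppara at 6.61 ± 0.10, Nr1h4 at 6.13 ± 0.16 and Nr2f6 at 6.09 ± 0.21. Nr1h3 at 5.76 ± 0.16, Nr1i3 at 5.64 ± 0.31, Rxrb at 5.36 ± 0.20 and Nr1h2 at 4.95 ± 0.12 came next. The neighbours Nr1h4 and Nr2f6, and Nr1h3 and Nr1i3, were within 1 SD of each other. The order ended with Esrrg at -2.58 ± 0.52, Rorb at -3.59 ± 1.09 and Nr6a1 at -3.84 ± 0.44. Probes differ in how strongly they bind, so this is an order of brightness and not of transcript amount. In furan liver 36 genes were above the 75th percentile of the array, as were 36 in vehicle liver. The order was much the same in both groups (Spearman rho 0.987 over 42 genes that share the same arrays), and no gene moved by more than 7 places.

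The genes that these receptors regulate were examined together with relatives and partners of the receptors, as 13 lists, 214 genes in all. The lists of other nuclear receptors, other coregulators and bHLH-PAS partners hold relatives and partners rather than targets. Their only gene past the threshold, Arntl, is also in the clock list. Of the 196 tested, 8 rose and 4 fell in furan liver (limma adjusted p under 0.05), which is 6.12%, against 4.18% of all genes. The lists were chosen with earlier results of these data known, which limits what these shares can show. With the slide column as a block, limma called 0 of the 196 and 0 of all 24921 genes, of which 4723 had an unadjusted p under 0.05. The list medians lay between -0.22 and 0.30.

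Of 22 tested CAR and PXR targets, 0 passed, with a median of -0.09. The sentinel of CAR, the cytochrome gene Cyp2b10, read 7.42, 7.20, 6.87 and 7.46 on the furan arrays and 7.12, 7.47, 7.60 and 7.68 on the vehicle arrays (-0.23 ± 0.17, limma adjusted p = 0.420). The sentinel of PXR, Cyp3a11, was 0.28 ± 0.12 higher in furan (0.202). Nearest to the threshold were the glutathione transferase gene Gstm3 at 0.67 ± 0.15 (limma adjusted p = 0.0538) and Cyp3a13 at 0.37 ± 0.09 (0.0569).

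Of 8 tested AHR targets, 2 rose, and both are also targets of the oxidative stress factor NRF2 or encode it. Nqo1, a quinone reductase gene, read 1.14, 0.92, 0.93 and 1.08 on the furan arrays and -0.60, -0.08, -0.45 and -0.21 on the vehicle arrays. Nfe2l2, the gene of NRF2 itself, read 4.21, 3.50, 3.72 and 3.68 on the furan arrays and 2.93, 3.02, 3.17 and 3.03 on the vehicle arrays. The furan arrays were all higher for both, by 1.35 ± 0.13 for Nqo1 (limma adjusted p = 0.00501) and 0.74 ± 0.16 for Nfe2l2 (0.0429). Nfe2l2 was lost whichever of the 8 arrays was left out (adjusted p 0.0628 to 0.105). The classical AHR target Cyp1a1 was well above background on 0 furan and 0 vehicle arrays and was not tested, and Cyp1a2 gave -0.40 ± 0.20 (limma adjusted p = 0.252).

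Of 14 tested FXR and SHP targets, 1 fell. That was Fetub, a liver-secreted protease inhibitor gene, at 7.67, 7.60, 7.57 and 7.50 on the furan arrays and 8.06, 8.24, 7.96 and 8.09 on the vehicle arrays (-0.50 ± 0.09, limma adjusted p = 0.0281). With arrays left out 1 at a time, it passed only without vehicle replicate 2 (0.0412), and adjusted p reached 0.0853. Cyp7a1, the first enzyme of bile acid synthesis and the main target of SHP, read 1.36, 2.86, 1.64 and 2.00 on the furan arrays and 1.73, 2.95, 2.34 and 3.62 on the vehicle arrays. Its groups overlapped widely at -0.69 ± 0.46 (limma adjusted p = 0.364). The bile salt export pump gene Abcb11, an FXR sentinel, gave -0.18 ± 0.09 (0.251).

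The 29 tested PPAR alpha targets had a median of -0.08, and Fgf21 and Cidec rose. Fgf21, a liver hormone gene that other stress factors also induce, read 1.16, -0.35, -0.16 and -0.55 on the furan arrays and -1.68, -1.63, -1.77 and -2.18 on the vehicle arrays. Cidec, a lipid droplet gene, read 1.13, -0.46, 0.56 and 0.25 on the furan arrays and -1.47, -1.01, -1.43 and -0.98 on the vehicle arrays. They were higher in furan by 1.84 ± 0.36 for Fgf21 (limma adjusted p = 0.0354) and 1.59 ± 0.32 for Cidec (0.0379). With arrays left out 1 at a time, Fgf21 passed without furan replicate 41 (limma adjusted p = 0.0265) and Cidec without furan replicate 42 (0.0309), and each was lost in the other 7. The peroxisome proliferator sentinel Cyp4a14 gave -0.39 ± 0.17 (limma adjusted p = 0.215).

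Of 14 tested LXR targets 1 rose, the lipase gene Pnpla3, at 0.78 ± 0.16 (limma adjusted p = 0.0418), a call that was lost in all 8 fits without 1 array and with the mean of its probes (0.08, adjusted p = 0.883). The LXR sentinel Srebf1, for the lipogenic factor SREBP-1, gave -0.34 ± 0.25 (0.409). Among the retinoic acid targets, the usual sentinel Cyp26a1 gave 0.63 ± 0.49 (limma adjusted p = 0.426).

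Of 19 tested glucocorticoid receptor targets 1 rose, the cell cycle inhibitor gene Cdkn1a, which is better known as a p53 target, by 4.66 ± 0.23 (limma adjusted p = 0.000559). The mean of its probes gave 2.03 (0.0560). The glucocorticoid sentinel Tsc22d3, for the protein GILZ, gave 0.32 ± 0.16 (limma adjusted p = 0.277). Of 8 tested thyroid hormone targets 0 passed, and the deiodinase gene Dio1 gave -0.37 ± 0.17 (0.242) and Thrsp -0.07 ± 0.39 (0.922). Of 24 tested HNF4A targets 0 rose and 1 fell. That was Cyp2j5, an epoxygenase gene, at 0.04, 0.10, 0.03 and 0.06 on the furan arrays and 0.56, 0.71, 0.34 and 0.62 on the vehicle arrays (-0.50 ± 0.10, limma adjusted p = 0.0355), a call that held without vehicle replicate 4 (0.0407) and was lost in the other 7 fits without 1 array.

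Of 16 tested clock genes under REV-ERB and ROR control, 1 rose and 1 fell. Arntl, for the clock activator BMAL1 that REV-ERB represses, read -0.09, 0.40, 0.02 and 0.20 on the furan arrays and -1.14, -1.99, -2.12 and -3.37 on the vehicle arrays. The furan values were close together and all above the widely spread vehicle values, by 2.29 ± 0.42 (limma adjusted p = 0.0291). Elovl3, a fatty acid elongase gene with a strong daily rhythm, read -3.47, -3.86, -2.88 and -3.38 on the furan arrays and -0.22, -0.31, -1.41 and -2.26 on the vehicle arrays (-2.35 ± 0.46, limma adjusted p = 0.0359). Of the 8 fits without 1 array, Arntl passed without vehicle replicates 2 and 6 (0.0159 and 0.0375) and Elovl3 without vehicle replicate 6 (0.0297). The clock time of sampling was not used here.

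**Figure D4:**
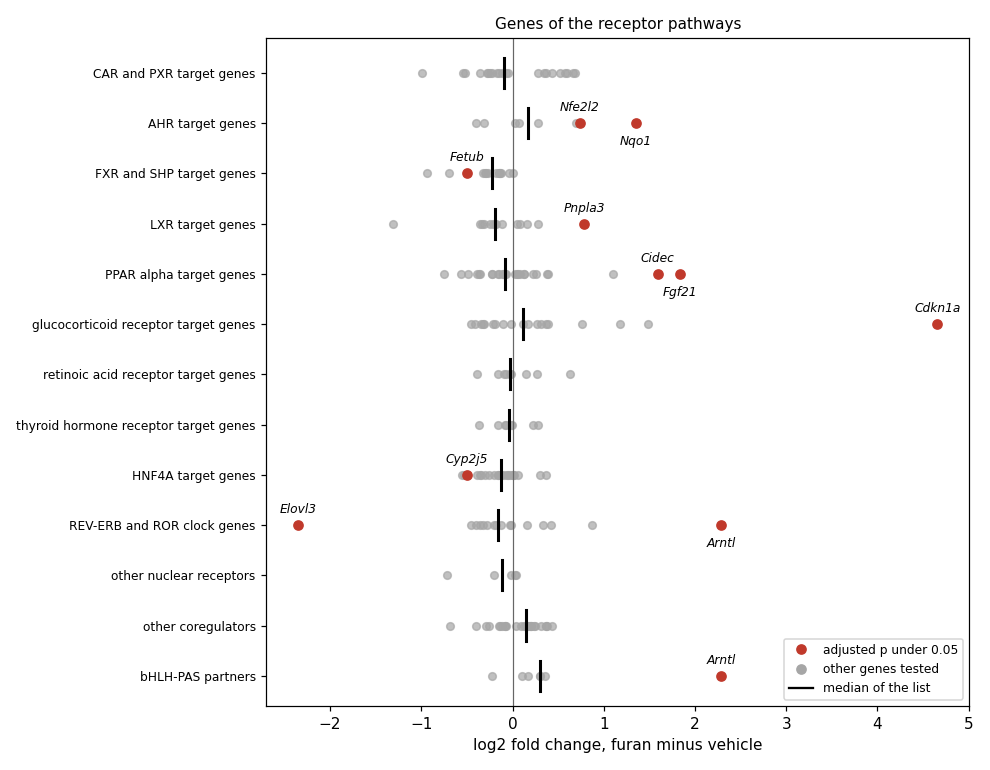
Log2 fold change, furan minus vehicle, of tested genes in the 13 lists of targets and partners (points, without the genes that are not reported), with the list median as a vertical bar; red points are genes with a limma adjusted p under 0.05, named beside them. Medians stay between -0.22 and 0.30, and 10 different genes are red, Arntl standing in both the clock and the bHLH-PAS list.

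Relatives outside the 46 were also counted. Of 6 other nuclear receptors tested 0 passed, the nearest being Esrrb at -0.72 ± 0.23 (limma adjusted p = 0.111). Of 27 other coregulators 0 passed, with a median of 0.14, the nearest being the corepressor gene Rcor1 at 0.37 ± 0.09 (limma adjusted p = 0.0617) and the PGC-1 beta gene Ppargc1b at -0.69 ± 0.17 (0.0656). Of 7 bHLH-PAS proteins and AHR chaperones tested, only Arntl passed. Hepatocyte, macrophage, sinusoidal endothelial, stellate, lymphocyte, neutrophil, erythroid and pancreas marker lists had 0 genes past the threshold. Of 9 proliferation markers 3 rose, Aurka, Ccnb2 and Foxm1, and of 9 bile duct and progenitor markers 1 rose, Prom1 at 1.15 ± 0.15 (limma adjusted p = 0.0124). The mean level of the bile duct and progenitor markers was -1.96 to -1.25 on the furan arrays and -1.83 to -0.61 on the vehicle arrays. That of the proliferation markers was -0.71 to 0.16 on the furan arrays and -1.91 to -0.92 on the vehicle arrays. That of 12 sinusoidal endothelial markers was 1.78 to 2.03 on the furan arrays and 2.05 to 2.26 on the vehicle arrays. That of 11 macrophage markers was 2.62 to 3.04 on the furan arrays and 2.47 to 3.64 on the vehicle arrays. Vehicle array 4 was the highest vehicle array for each macrophage marker except Cd163, as it was for Nr4a1. Csf1r, for example, read 6.42 there and 5.12 to 5.35 on the other vehicle arrays. The part of these cell types in the results above was not tested.

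The DNA letters that nuclear receptors read were looked up in RefSeq promoter windows of assembly GRCm38.p6, which run from 250 bases before to 50 bases after a gene's start. The core site AGGTCA, or its reverse complement TGACCT, was in 16.3% of 32851 windows. It was in 11 of the 62 windows of the members, 17.7%, near the share of all windows. Some genes have several windows. Per gene it was found for 10 of the 40 members with a window, 25% of them, against 18.1% of 27025 genes. Those 10 were Nr1d2, Nr1h4, Nr5a2, Nr6a1, Pparg, Rara, Rarg, Rxra, Rxrg and Thrb. The longer site AAAGGTCA, the core site preceded by AA that NUR77 binds as a monomer, overlaps the first by construction. It was in 1.51% of all windows and in 2 of the 62 member windows (3.23%), those of Rxra and Rxrg. Per gene that was 5% of the 40 members, against 1.70% of all genes. The core site preceded by T, TAGGTCA, was in 2.61% of windows and in 0 of the members. Of the 12 target genes past the threshold, 9 had a window, and the core site was in those of 2, Arntl and Cyp2j5, where 18.1% of all genes hold it. These matches describe letters only.

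The 4 windows shown are those of the 2 changed targets with a core site, Arntl and Cyp2j5, and those of REV-ERB beta, Nr1d2, and FXR, Nr1h4, the members tied to the clock and bile acid lists. Capitals mark the core site in either orientation. Arntl lies at chr7:113207261-113207560 on the plus strand, and its core site begins 31 bases past the start and follows a t. Cyp2j5 lies at chr4:96664070-96664369 on the minus strand, with the core site at position -197 from the start. Nr1d2 lies at chr14:18239057-18239356 on the minus strand, with the core site at -77. Nr1h4 lies at chr10:89506609-89506908 on the minus strand, with the core site at -214 in reverse orientation. Each line runs 5′ to 3′ on the strand of the gene.
Arntl: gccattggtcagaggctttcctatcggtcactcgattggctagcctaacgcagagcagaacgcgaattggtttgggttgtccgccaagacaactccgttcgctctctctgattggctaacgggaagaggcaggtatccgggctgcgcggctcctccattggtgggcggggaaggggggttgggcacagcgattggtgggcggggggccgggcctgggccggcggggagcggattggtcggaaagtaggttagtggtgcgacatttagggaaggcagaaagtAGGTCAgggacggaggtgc
Cyp2j5: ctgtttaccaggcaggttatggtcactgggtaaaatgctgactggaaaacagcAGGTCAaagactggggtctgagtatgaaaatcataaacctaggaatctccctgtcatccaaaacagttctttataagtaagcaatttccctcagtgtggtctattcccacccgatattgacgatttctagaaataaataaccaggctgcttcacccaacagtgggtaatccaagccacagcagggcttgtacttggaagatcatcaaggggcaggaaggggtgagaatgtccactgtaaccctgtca
Nr1d2: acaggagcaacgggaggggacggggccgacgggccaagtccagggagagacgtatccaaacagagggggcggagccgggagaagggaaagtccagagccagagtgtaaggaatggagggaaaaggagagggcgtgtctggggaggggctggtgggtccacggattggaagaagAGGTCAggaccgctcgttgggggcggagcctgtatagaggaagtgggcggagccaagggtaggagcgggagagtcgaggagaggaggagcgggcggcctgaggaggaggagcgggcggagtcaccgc
Nr1h4: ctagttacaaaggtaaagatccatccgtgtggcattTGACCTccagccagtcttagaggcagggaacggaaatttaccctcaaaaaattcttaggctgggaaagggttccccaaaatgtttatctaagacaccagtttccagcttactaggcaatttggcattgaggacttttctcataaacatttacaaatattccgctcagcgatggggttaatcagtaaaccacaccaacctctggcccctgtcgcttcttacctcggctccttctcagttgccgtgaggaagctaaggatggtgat

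The direction of single genes was followed through the other ways of processing the arrays. Between 20 and 39 genes were higher in furan where all 42 were tested, the extreme of 39 coming from a shift to the median, which raised the median difference of all genes to 0.39. Relative to all genes the members' median stood at 0.12 as reported. It was 0.12 with that shift too, but this was fixed, since the shift moves the differences of all genes alike. Relative to all genes it stood at -0.04 with quantile normalization, 0.01 with normexp and -0.02 in the authors' deposited table. The median shift subtracts the median log2 intensity of the array, which was 7.03 on vehicle array 2 and 5.02 to 5.59 on the others. The 75th percentile of vehicle array 2 was 8.85, within the 8.40 to 8.90 of the others. Ncoa1, Ncoa2, Nrip1, Hnf4a, Nr2c1, Esr1, Nr4a1 and Nr0b2 were higher in furan under each of the 21 settings run, and Nr1i3 and Nr3c2 lower. Several of these settings cannot change a difference: the stricter adjusted p, each probe on its own, trend and robust variances, and the slide blocks. Others only leave out 1 array. The median shift raised the difference of each of these genes, so it could not make a higher gene lower. Of the 12 genes with an unadjusted limma p under 0.05, Hnf4a, Ncoa1, Ncoa2, Nrip1, Nr2c1 and Ahr were higher in furan in 4 of 4 slide columns, and Esr1 and Nr4a1 in 3. Nr1i3 and Esrrg were higher in furan in 1 of the 4, and Thra and Nr3c2 in 0. For Hnf4a, Ncoa1, Ncoa2, Ahr, Thra and Nr3c2 the groups did not overlap, so their column counts were fixed by that.

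**Figure D5:**
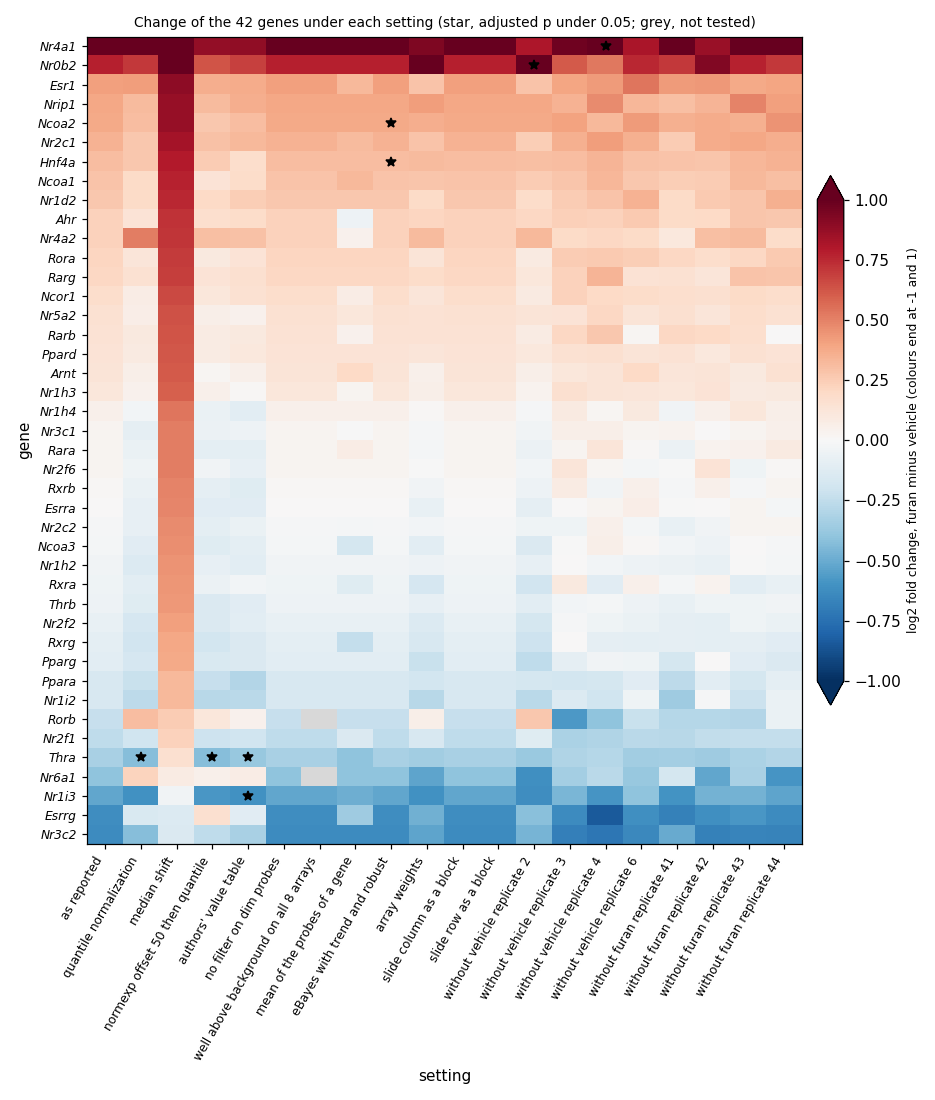
Colour gives the log2 fold change, furan minus vehicle, of the 42 genes (down the page) under each of 20 settings (across), red for higher and blue for lower in furan; stars mark a limma adjusted p under 0.05 and grey cells genes not tested. Stars are few and move between genes: Thra for quantile normalization, normexp and the authors' deposited table, and Nr1i3 for that table only. Hnf4a and Ncoa2 have stars for trend and robust, and Nr0b2 and Nr4a1 when a vehicle array is left out.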

How the data were processed

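Total RNA of 8 mouse livers was measured on the arrays of 1 slide. The deposited scanner output comes from Agilent Feature Extraction 11.0.1.1, per the file headers, and gives for every spot a background-subtracted, detrended fluorescence intensity and the median intensity of spot and local background. The authors' deposited value table is in log2 units, and its columns follow the log2 median intensity of the same arrays (r across probes of 0.998 to 1.00, column medians 6.53 to 6.74). Their normalization and centring are unknown here.

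Control spots and spots marked as outliers were left out. From each log2 processed intensity the 75th percentile of the same array was subtracted, and repeated spots were averaged. Probes well above background on 4 or more of 8 arrays stayed in, 33848 of 55681, and each gene was represented by its brightest kept probe. Symbols came from RefSeq accessions through a GRCm38.p6 table (27235 of 28685 probes with an accession). Promoter windows are from RefSeq, assembly GRCm38.p6.

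Furan was compared with vehicle by lmFit and eBayes of limma 3.58.1 (R 4.3.3), as a 2-sided test, adjusted by Benjamini-Hochberg over 24921 genes or transcripts, with calls at an adjusted p under 0.05. The fit was tested on simulated data. Alternatives were quantile normalization, a median shift, normexp with an offset of 50 (on the median intensity, since the files hold no mean), the authors' table, omitting the filter or asking for all 8 arrays, the mean of a gene's probes, each probe on its own, trend and robust variances, array weights, slide column or row as a block, omission of each array, and an adjusted p under 0.01. The members and lists were chosen with earlier results of these data known. Beside the members, the rule for named genes took up to 4 genes past the threshold from each list, otherwise up to 2 with the smallest adjusted p, and 10 sentinel genes. Some named genes are not reported here, but stay in the counts and medians. The number of arrays limits the precision. Replicates are separate animals by their labels. Plots were drawn with matplotlib 3.10.9.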

Additional observations from a re-analysis of the deposited data

Results flagged for a closer look

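In 7 of 116 groups of 4 arrays, looked at for the members and the targets past the threshold, 1 array lay far from the other 3, where chance alone gives about 5.8 at 1 in 20. Ppara was at 6.75 on vehicle array 6, above 6.55 to 6.57 on the other vehicle arrays. Rora was at 2.16 on vehicle array 2, below 2.62 to 2.66. Rorb was at -4.33 on furan array 44, below -3.67 to -3.65 on the other furan arrays. Nr3c2 was at -2.23 on furan array 41, below -1.78 to -1.72. Nr4a1 was at 1.65 on furan array 42, above 1.09 to 1.17. Nr4a2 was at -1.40 on vehicle array 2, above -1.79 to -1.74. Nr5a2 was at 3.94 on vehicle array 4, above 3.72 to 3.73.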

How the results depend on the processing

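No analysis paired by replicate number was possible because the numbers of the furan group (41 to 44) and the vehicle group (2, 3, 4 and 6) share none, and no label ties an animal to a block; the slide column, which held 1 array of each group, served as the block in its place. The count of members past the threshold, 0 higher and 0 lower as reported, became 1 lower with quantile normalization (Thra) and with normexp (Thra), 2 lower in the authors' deposited table (Thra and Nr1i3) and 2 higher with trend and robust (Hnf4a and Ncoa2). Leaving out 1 array gave 0 to 1 higher, Nr0b2 without vehicle replicate 2 and Nr4a1 without vehicle replicate 4, and 0 to 0 lower. Of the 196 tested genes of the target and partner lists, 8 rose and 4 fell as reported. The higher count was 3 with the median shift, 3 without the filter, 17 with the filter on all 8 arrays, 4 with the mean of probes, 20 with trend and robust, 0 with the column block, 3 at an adjusted p under 0.01, and 3 to 6 without 1 array. The lower count was 8 with quantile normalization, 0 with the median shift, 10 with normexp, 14 in the authors' table, 0 without the filter, 7 with the filter on all 8 arrays, 10 with trend and robust, 9 with array weights, 0 with the column block, 0 at an adjusted p under 0.01, and 0 to 3 without 1 array. Over all genes the count of 1041 became 86 with the median shift, 163 without the filter, 1671 in the authors' table, 1733 with the filter on all 8 arrays, 1790 with array weights, 2001 with trend and robust and 195 to 929 without 1 array. Among the members with an unadjusted p under 0.05 and the targets past the threshold, the differences that changed sign were Thra with the median shift (0.16), Esrrg with normexp (0.16) and Ahr with the mean of probes (-0.050). Over all 42 members the sign was kept by 34 with quantile normalization, 28 with the median shift, 33 with normexp, 34 in the authors' table and 35 to 40 without 1 array. The cause of these shifts was not tested.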
